A study of Mus musculus with 12 samples.

Results

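Transcripts of 41 complement and coagulation genes were followed in mouse liver with and without the clock receptor REV-ERBα. The genes were taken by their symbols from the count tables, which list 38926 symbols. Of the 41, 22 belong to complement and 19 to coagulation and fibrinolysis, and these lists are described apart. A gene was kept where at least 3 of the 12 samples held 10 or more reads, which 40 genes did (21 of complement, 19 of coagulation). The same 40 genes were among the 14488 that entered the test.

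The study asked how the nuclear receptor REV-ERBα (gene Nr1d1), a repressor within the circadian clock, affects the glucocorticoid receptor and its target genes in liver. Messenger RNA was sequenced from 12 livers, 1 per library, in 4 groups of 3, labelled WT (wild type) and Rev KO (Rev-erbα-/-) at ZT8 and at ZT20. ZT is zeitgeber time, the hours since lights on, so that ZT8 lies in the light phase and ZT20 in the dark phase. Male mice on a mixed 129Ola/C57BL6 background, 12 weeks old according to the labels, were kept in a light-dark cycle with free access to food, and no agent was given to any group. The Rev KO animals lacked Nr1d1 in the whole body, not only in the liver, and were bred from heterozygous pairs.

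Complement is a cascade of plasma proteins that marks microbes and cell debris for removal. It is started by C1q, which binds antibodies, or by the mannose-binding lectins, which bind sugars on microbial surfaces. All routes cleave C3 and can end in a pore built from C5b to C9. Coagulation is a cascade of proteases that ends when thrombin turns fibrinogen into fibrin, and plasmin dissolves the clot. Hepatocytes secrete most of these proteins into the blood, whereas C1q and properdin come largely from macrophages, in the liver the Kupffer cells.

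Between 17641809 and 26060192 reads per library fell on genes. Levels are CPM, counts per 1000000 counted reads, after TMM scaling, and 3 reads correspond to 0.117 to 0.167 CPM. The 10 hepatocyte markers together stood at 53986 to 111040 CPM, so the tissue label was borne out by its markers. Within WT ZT8 the libraries stood apart. The summed level of 21 acute-phase genes was 11625, 35632 and 45735 CPM in replicates 1, 2 and 3, against 11725 to 14562 CPM in the other 9 libraries. Saa1, a serum amyloid of the acute phase, was at 60.8, 4972 and 6489 CPM in the same 3 libraries. The study reported Rev-erbα mRNA, by PCR, and protein, by staining, as absent from Rev-erbα-/- livers. In these counts Nr1d1 itself does not check the genotype labels. Its reads reached 129, 96.2 and 75.3 CPM in WT and 63.0, 71.9 and 80.6 CPM in Rev KO at ZT8, and a count over the whole symbol does not show which part of the gene is deleted.

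Mbl1, Mbl2 and F7 were the only members past the threshold between genotypes. Their promoter windows are shown first, because they are the sequences nearest to the starts of the genes that the genotype results turn on. Each is the 250 bases before the start of the gene in RefSeq on GRCm38.p6, written 5′ to 3′ on the strand of the gene. Capitals mark matches to AGGTCA, the core motif shared by REV-ERB and ROR receptors, or to AGAACA, a core motif of the glucocorticoid receptor, read on both strands (TGACCT is AGGTCA on the other strand).
Mbl1 (chr14:41151206-41151455, + strand): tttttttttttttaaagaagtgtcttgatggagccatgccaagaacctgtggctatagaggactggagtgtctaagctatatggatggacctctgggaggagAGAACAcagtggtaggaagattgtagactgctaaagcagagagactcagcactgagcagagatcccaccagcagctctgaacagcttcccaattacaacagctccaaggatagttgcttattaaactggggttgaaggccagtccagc
Mbl2 (chr19:30232678-30232927, + strand): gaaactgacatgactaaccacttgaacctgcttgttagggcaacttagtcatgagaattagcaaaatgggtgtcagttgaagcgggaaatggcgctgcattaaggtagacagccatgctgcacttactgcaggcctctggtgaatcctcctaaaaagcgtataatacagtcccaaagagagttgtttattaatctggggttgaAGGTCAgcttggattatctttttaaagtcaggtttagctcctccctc
F7 (chr8:13025784-13026033, + strand): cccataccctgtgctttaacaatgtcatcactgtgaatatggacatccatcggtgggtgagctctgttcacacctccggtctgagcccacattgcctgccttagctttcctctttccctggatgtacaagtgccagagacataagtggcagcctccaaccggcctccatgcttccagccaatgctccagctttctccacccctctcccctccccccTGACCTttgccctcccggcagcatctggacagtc

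The match began 148 bases before the start in Mbl1 (AGAACA), 47 bases before it in Mbl2 (AGGTCA) and 34 bases before it in F7 (TGACCT). The longest run of bases that the windows of Mbl1 and Mbl2 share is ctggggttgaagg, 13 bases long, which begins 23 bases before the start of Mbl1 and 57 bases before the start of Mbl2. RefSeq gave 34 windows for 32 of the 41 members. AGGTCA was found in 10 member windows (29.4%) and in 14.0% of all 32851 windows. AGAACA was found in 13 member windows (38.2%) and in 16.1% of all windows. Of the other motifs searched on both strands, the E-box CACGTG was in 0 member windows (6.02% of all) and the D-box TTATGTAA in 0 (0.819% of all). The STAT motif TTCNNNGAA was in 6 (17.6%, against 7.02% of all). All windows were those of any gene, not matched to the members for expression in liver or base composition, and the differences in share were not tested. These are matches of letters, and no binding was measured in these data.

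The levels spanned a wide range. Levels of different genes are compared here only as CPM per kb of exon, averaged over the 12 livers. In complement the highest were C3, the protein on which all routes converge, at 1722 CPM per kb, C9, the main subunit of the pore, at 457, and C8a, a chain of C8, at 328. In coagulation the chains of fibrinogen were highest, with Fga at 1826, Fgg at 1768 and Fgb at 1154 CPM per kb. Together the complement members took 14831 to 20362 CPM of a library and the coagulation members 21174 to 26980 CPM. F8, which encodes the cofactor factor VIII, was among the lowest at 3.52, as were Cfb (factor B of the alternative route) at 2.10 and Klkb1 (plasma prekallikrein) at 4.55.

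The counting bears on some of these levels. Reads that fall on exons of more than 1 gene were dropped, and 79.5% of the exon bases of Cfb and 46.9% of those of C2 overlap another gene, mostly the read-through gene Gm20547, which is listed at 0 reads in the 12 libraries. The overlap was 54.9% for Masp2 (with Tardbp), 43.2% for Klkb1, 18.4% for C1s and 11.3% for Plg. These overlaps are those of GENCODE M21, and the annotation used for counting was not given. Where it held the overlapping gene, as the listing of Gm20547 shows for Cfb and C2, levels per kb of exon are too low. Per kb of exon that no other gene overlaps, Cfb stood at 10.3 and Klkb1 at 8.00 CPM, and F8 was the lowest of the 40 tested members. C4b, C1ra and Kng1 have near-identical copies (C4a, C1rb and Kng2) and are uncertain, since only uniquely aligned reads were counted.

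Cfd (factor D, the protease that activates factor B) was the only member that failed the filter. It had 0 to 3 reads per library. Factor D is made mainly by fat cells, and of 6 adipocyte markers Lep was listed at 0 in the 12 libraries and Adipoq, Plin1 and Retn at 0.167 CPM or less. The sum of the 6, 2.84 to 22.8 CPM, came mostly from Adrb3 (2.00 to 20.3 CPM) and Cidec (0.837 to 4.93 CPM).

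**Figure D1:**
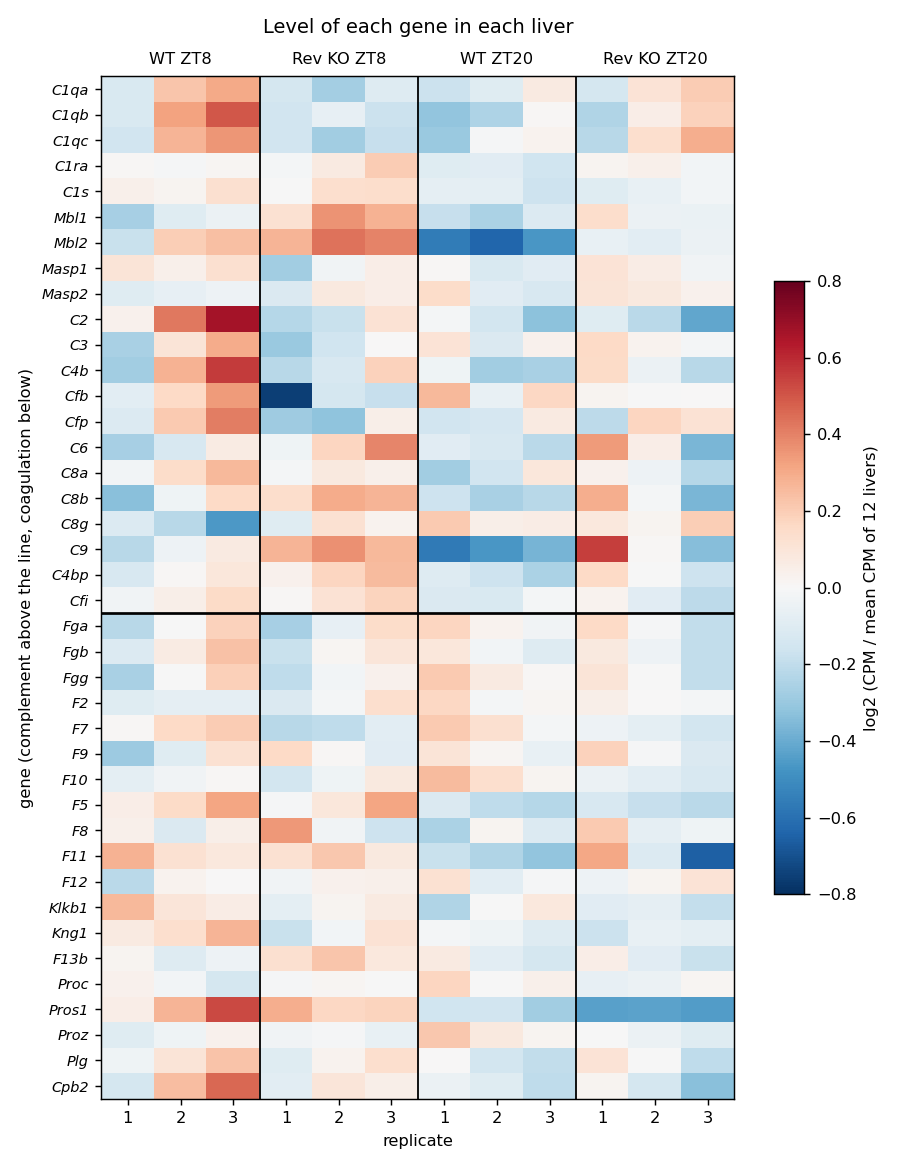
Level of the 40 tested genes in each liver as the log2 ratio of its CPM to the mean CPM of the 12 livers (colour scale, red above and blue below the mean), with genes in rows, complement above coagulation, and replicates in columns by group. WT ZT8 replicate 1 is the lowest of its group for 31 of 40 genes and replicate 3 the highest for 34. At ZT20, Pros1 is low in both genotypes and Mbl2 is low in WT and near the mean in Rev KO.

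The members moved together within groups (the heat map of levels by liver). WT ZT8 replicate 1 was the lowest of its group for 31 of the 40 members and replicate 3 the highest for 34. Over all tested genes these shares were 37.9% and 36.1%. In Rev KO ZT8 replicate 1 was lowest for 29 members (38.2% of all tested genes) and replicate 3 highest for 22 (37.6%). At ZT20 the order was the other way round in both genotypes. Replicate 1 was highest for 27 members in WT (35.4% of all tested genes) and 27 in Rev KO (37.3%). Replicate 3 was lowest for 20 members in WT (37.1%) and 28 in Rev KO (36.6%). The median coefficient of variation of complement members was 12.2% in WT ZT8 and 6.67% in WT ZT20. It was 6.86% and 6.00% in these groups over the 8055 tested genes with a mean of 10 CPM or more. For coagulation members it was 7.33% in WT ZT8 and 6.93% in WT ZT20.

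The first comparison was Rev KO against WT at ZT8. Mbl1, which encodes mannose-binding lectin A, rose, and F7, which encodes factor VII, the protease that starts coagulation together with tissue factor, fell. The other 20 complement and 18 coagulation members did not pass the threshold. Thus 1 of 21 complement members was higher and 0 lower, and 0 of 19 coagulation members were higher and 1 lower. Over all tested genes 8.45% passed, 4.4% higher and 4.04% lower, so the share of members called was not above the background. At an unadjusted p below 0.05 there were 9 complement and 2 coagulation members, and 23.5% of all tested genes. The median log2 fold change was 0.03 for complement and -0.04 for coagulation, against 0.0018 over all tested genes.

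Mbl1 lies at chr14:41151458-41159601 (+ strand). In WT livers at ZT8 it stood at 177, 199 and 206 CPM and in Rev KO livers at 231, 273 and 258 CPM. Every Rev KO liver lay above every WT liver. The difference was 1.31-fold (log2 fold change 0.39 ± 0.09 (SE), adjusted p = 0.013). At ZT20 the values were 187, 179 and 197 CPM in WT and 234, 205 and 205 CPM in Rev KO. These groups did not overlap either, but the difference was smaller and did not pass the threshold (log2 fold change 0.19 ± 0.09 (SE), adjusted p = 0.323). The effects at ZT8 and ZT20 differed by 0.20 ± 0.13 (SE) on the log2 scale, with adjusted p = 0.424, so a larger effect at ZT8 was not shown. The call at ZT8 was lost without WT ZT8 replicate 2 (adjusted p = 0.0507) and without Rev KO ZT8 replicate 2 (adjusted p = 0.0793). Without both WT ZT8 replicates with high acute-phase transcripts it held, at 0.52 (adjusted p = 0.0426).

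F7 lies at chr8:13026034-13035809 (+ strand). It stood at 109.5, 121 and 125 CPM in WT and 93.1, 94.3 and 103 CPM in Rev KO at ZT8. All Rev KO livers were below all WT livers. The difference was 0.816-fold (log2 fold change -0.29 ± 0.08 (SE), adjusted p = 0.0291). At ZT20 the values were 126, 119 and 107 CPM in WT and 106, 103 and 98.2 CPM in Rev KO. Again every Rev KO liver was below every WT liver, by -0.20 ± 0.08 (SE) on the log2 scale, with adjusted p = 0.216. The effects at the 2 times differed by -0.10 ± 0.11 (SE), adjusted p = 0.688. The call of F7 passed in 13 of 19 alternatives and depended on single livers. It was lost without WT ZT8 replicate 2 or 3 (adjusted p = 0.107 and 0.0981) and without Rev KO ZT8 replicate 1 or 2 (0.0815 and 0.104). Without WT ZT8 replicates 2 and 3 together its log2 fold change was -0.19 (adjusted p = 0.488).

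The genes of factor VII, factor X and protein Z are neighbours on 1 strand of chromosome 8. F10 lies at chr8:13037308-13056676 (+ strand) and Proz at chr8:13060914-13076026 (+ strand). Factor X is the protease that factor VII activates, and protein Z is a cofactor of a factor X inhibitor. At ZT8 neither neighbour showed the difference of F7, with log2 fold changes of -0.0011 ± 0.09 (SE) for F10 and 0.0012 ± 0.08 (SE) for Proz. At ZT20 F10 stood at 533, 489 and 453 CPM in WT and 431, 421 and 409 CPM in Rev KO, and Proz at 429.9, 392 and 376 and 369.9, 358 and 346 CPM. Both genes were without overlap between genotypes, in the direction of F7, but neither passed the threshold (F10 -0.23 ± 0.09 (SE), adjusted p = 0.211, and Proz -0.16 ± 0.08 (SE), adjusted p = 0.377). F10 and Proz were singled out after their values were seen.

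The recognition chains of the classical route did not pass the threshold at ZT8. C1qa, C1qb and C1qc, which encode the chains of C1q and lie side by side on chromosome 4, had log2 fold changes of -0.31 ± 0.11, -0.38 ± 0.15 and -0.37 ± 0.15 (SE), with adjusted p = 0.106, 0.138 and 0.14. In WT livers C1qa was at 35.3, 44.9 and 47.5 CPM and in Rev KO livers at 34.8, 31.9 and 35.7 CPM. WT replicate 1 lay within the range of the Rev KO livers, and replicates 2 and 3 lay above it. The 8 Kupffer cell markers moved in the same way. Their sum was 352, 457 and 559 CPM in WT ZT8 replicates 1, 2 and 3 and 306 to 423 CPM in the other 9 libraries, and its part in the result was not tested. In bulk RNA, fewer cells of a type and less RNA per cell cannot be told apart. Cfp (properdin, which stabilises the alternative convertase) had -0.36 ± 0.14 (SE), adjusted p = 0.143, and stood at 19.5, 24.3 and 28.0 CPM in WT and 17.2, 16.8 and 21.7 CPM in Rev KO.

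The proteases of initiation did not pass the threshold. C1ra and C1s, the proteases of the C1 complex, had log2 fold changes of 0.08 ± 0.07 and 0.03 ± 0.08 (SE). Masp1 and Masp2, the proteases bound to mannose-binding lectins, had -0.17 ± 0.08 and 0.07 ± 0.08.

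All 5 tested components of the C3 convertases (C2, C3, C4b, Cfb and Cfp) had negative log2 fold changes at ZT8, between -0.48 and -0.21, and none passed the threshold. C2, the protease of the classical convertase, came closest. Its values were 46.2, 60.2 and 71.3 CPM in WT and 38.5, 39.8 and 48.8 CPM in Rev KO, with WT replicate 1 inside the Rev KO range (log2 fold change -0.48 ± 0.15 (SE), adjusted p = 0.0718). DESeq2 called C2 as lower. For Cfb the groups did not overlap, with 5.61, 6.63 and 7.52 CPM in WT and 3.53, 5.39 and 5.24 CPM in Rev KO (log2 fold change -0.48 ± 0.17 (SE), adjusted p = 0.0897). Without WT ZT8 replicate 1, 9 complement members and F7 were called, with C1qa, C1qb, C1qc, C2, C4b, Cfb and Cfp lower and Mbl1 and C8g higher. In that fit 12.3% of all tested genes were called. Without WT ZT8 replicates 2 and 3, only replicate 1 was left in that group. The log2 fold changes were then 0.52 for Mbl1, 0.54 for Mbl2, 0.12 for C8g, -0.13 for C2 and -0.26 for Cfb. Those of C1qa, C1qb, C1qc and Cfp lay between -0.07 and -0.02, and C4b turned from -0.27 to 0.23.

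In the terminal pathway 4 of 5 members had positive log2 fold changes at ZT8, and none passed the threshold. C9 was at 999, 1136 and 1227 CPM in WT and 1411, 1502 and 1394 CPM in Rev KO, without overlap (log2 fold change 0.36 ± 0.17 (SE), adjusted p = 0.219). C8g, the lipocalin chain of C8, stood at 307, 283 and 240.2 and 309, 359 and 336 CPM, also without overlap (log2 fold change 0.27 ± 0.10 (SE), adjusted p = 0.104). The remaining values were 0.29 for C6, 0.29 for C8b and -0.10 for C8a. Of the regulators, C4bp, which binds C4b, and Cfi, which cleaves C3b and C4b, had 0.16 and 0.04. Over the complement list 6 genes were without overlap between genotypes at ZT8, 4 higher and 2 lower, and over all tested genes this share was 25.6%.

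Coagulation genes other than F7 differed little between genotypes at ZT8. Their median absolute log2 fold change, F7 included, was 0.08, against 0.17 over all tested genes and 0.27 for complement. These sets were not matched in level, and 8055 of the 14488 tested genes had a mean of 10 CPM or more. The fibrinogen chains Fga, Fgb and Fgg had -0.05 ± 0.14, -0.09 ± 0.12 and -0.05 ± 0.13 (SE). F2 (prothrombin) had 0.08 and F9 (factor IX) 0.11. The cofactors F5 and F8 had -0.04 and 0.07. In the contact system F11, F12, Klkb1 and Kng1 (high molecular weight kininogen) lay between -0.18 and 0.07. F13b, the carrier chain of the enzyme that crosslinks fibrin, was without overlap, at 231, 212 and 221 CPM in WT and 249, 266 and 241 CPM in Rev KO (log2 fold change 0.19 ± 0.08 (SE), adjusted p = 0.19). The anticoagulant proteins Proc and Pros1 (protein C and its cofactor protein S) had 0.04 and -0.08. Plg (plasminogen) and Cpb2 (a carboxypeptidase that slows clot lysis) had -0.08 and -0.19.

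**Figure D2:**
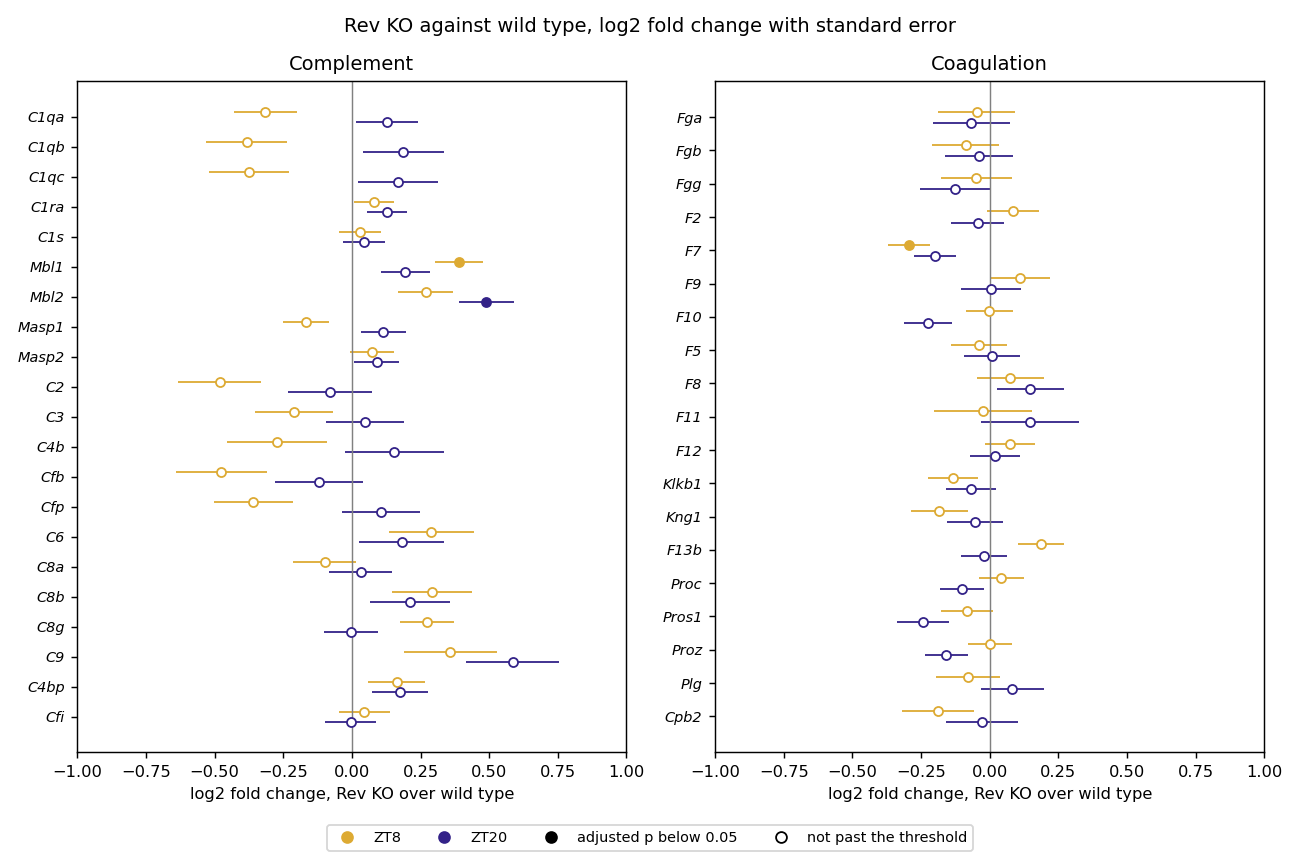
Log2 fold change of Rev KO over WT with its standard error for each tested complement gene (left) and coagulation gene (right), at ZT8 (yellow) and ZT20 (dark blue), 3 livers per group, filled where the adjusted p was below 0.05. Only Mbl1 at ZT8, Mbl2 at ZT20 and F7 at ZT8 are filled.

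The second comparison was Rev KO against WT at ZT20. Mbl2, which encodes mannose-binding lectin C, rose. It was the only one of 21 complement members past the threshold (1 higher, 0 lower), and 0 of 19 coagulation members passed. The background was 3.63% of all tested genes, 2.09% higher and 1.54% lower. Of coagulation genes 3 were below an unadjusted p of 0.05 (F7, F10 and Pros1), as were 14.6% of all tested genes, and DESeq2 called 0. The median log2 fold change of complement was 0.13, with 17 of 21 genes positive, that of coagulation -0.04, and that of all tested genes -0.00068.

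Mbl2 lies at chr19:30232942-30239687 (+ strand). At ZT20 it stood at 204, 193 and 217 CPM in WT and 288, 283 and 291 CPM in Rev KO. The replicates of each genotype were tightly grouped and did not overlap. The difference was 1.40-fold (log2 fold change 0.49 ± 0.10 (SE), adjusted p = 0.0126). At ZT8 the values were 266, 345 and 355 CPM in WT and 362, 405 and 396 CPM in Rev KO. All Rev KO livers were again above all WT livers, and the difference did not pass the threshold (log2 fold change 0.27 ± 0.10 (SE), adjusted p = 0.117). The effects at the 2 times differed by -0.22 ± 0.14 (SE), adjusted p = 0.428. The call at ZT20 passed in 18 of 19 alternatives and was lost without WT ZT20 replicate 2 (adjusted p = 0.0917).

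Both lectin genes were thus without overlap between genotypes at both times, each with 1 of its 2 genotype differences past the threshold. C9 (higher) and F7 (lower) were also without overlap at both times. Over all tested genes 25.6% were without overlap at ZT8 and 22.5% at ZT20, and the share at both times was not counted. Mbl1 and Mbl2 are on different chromosomes. Their partner proteases did not pass the threshold at ZT20, with 0.11 ± 0.08 (SE) for Masp1 and 0.09 ± 0.08 (SE) for Masp2.

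C9 had the largest log2 fold change of the members at ZT20, 0.59 ± 0.17 (SE), but missed the threshold (adjusted p = 0.0826). The WT livers stood at 789, 844 and 902 CPM and the Rev KO livers at 1710.2, 1173 and 921 CPM. The groups did not overlap, but Rev KO replicate 3 lay just above the highest WT liver and replicate 1 far above it. Without Rev KO ZT20 replicate 3, C9 was called as higher. The same order of replicates was seen for C6, at 640.1, 523 and 392 CPM, for C8b, at 714, 579 and 453 CPM, and for F11, at 212, 159 and 109 CPM in the Rev KO livers. These genes were singled out after their values were seen. The order was common in the list. In Rev KO ZT20 replicate 1 was highest for 27 of the 40 members and replicate 3 lowest for 28. No gene of the terminal pathway passed the threshold at ZT20.

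Other than Mbl2 and C9, the log2 fold changes of complement genes at ZT20 ran from -0.12 (Cfb) to 0.21 (C8b). The C1q chains had 0.13, 0.19 and 0.17, positive where those at ZT8 were negative. C1ra was without overlap, at 222, 224 and 213 CPM in WT and 241, 245 and 234 CPM in Rev KO (log2 fold change 0.13 ± 0.07 (SE), adjusted p = 0.452). In coagulation F7, F10, Pros1 and Proz were without overlap, all lower in Rev KO. That is 4 of 19, and in complement 4 of 21 were without overlap, all higher. Of all tested genes 11.2% were higher and 11.3% lower without overlap, 22.5% in all. Pros1 stood at 69.0, 69.4 and 63.7 CPM in WT and 57.0, 57.3 and 56.6 CPM in Rev KO (log2 fold change -0.24 ± 0.09 (SE), adjusted p = 0.222), and a fit on only the 6 livers of ZT20 called it as lower. F2, F9 and Proc had -0.04, 0.0034 and -0.10. The fibrinogen chains lay between -0.13 and -0.04.

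Whether the genotype effect differed between the times was tested as the effect at ZT8 minus that at ZT20. Of complement 0 of 21 members and of coagulation 0 of 19 passed, against 5.88% of all tested genes (3.05% with a positive and 2.83% with a negative difference). DESeq2 called 0 in each list. At an unadjusted p below 0.05 there were 5 complement members, C1qa, C1qb, C1qc, Masp1 and Cfp, and 0 coagulation members, where 19.6% of all tested genes were. All 5 had negative differences, from -0.57 ± 0.21 (SE) for C1qb (adjusted p = 0.146) to -0.28 ± 0.12 (SE) for Masp1 (adjusted p = 0.192). C1qa, C1qb and C1qc passed without WT ZT8 replicate 1 (8.59% of all tested genes in that fit). C1qc also passed without Rev KO ZT20 replicate 1, and C1qb did when the replicate number was a block (adjusted p = 0.0413). A fit without WT ZT8 replicates 2 and 3 left 1 library in that group. The differences of C1qa, C1qb and C1qc were then -0.19, -0.21 and -0.23, against -0.44, -0.57 and -0.54 over the 12 libraries.

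The last comparisons set ZT20 against ZT8 within each genotype. The WT comparison and the genotype comparison at ZT8 share the WT ZT8 livers, and the other pairs of comparisons share groups in the same way, so their values are given side by side only. In WT, Mbl2, C2 and C1qb fell and C8g rose from ZT8 to ZT20, and of coagulation F5 (factor V, the cofactor of factor X) and Pros1 (protein S, the cofactor of protein C) fell. That is 1 of 21 complement members higher and 3 lower and 0 of 19 coagulation members higher and 2 lower, where 27.7% of all tested genes passed, 13.8% higher and 13.9% lower. In Rev KO, Mbl2, F5 and Pros1 fell, which is 1 complement and 2 coagulation members, against 17.5% of all tested genes (8.79% higher, 8.67% lower). In both genotypes the share of members called was not above the background. Without WT ZT8 replicate 1, 9 complement members passed in WT, where 28.9% of all tested genes did. In Rev KO, Mbl1 also passed without Rev KO ZT8 replicate 1, and C9, F11 and Mbl1 without Rev KO ZT20 replicate 1, all lower at ZT20. Without overlap between the times were 7 complement and 6 coagulation members in WT, against 42.3% of all tested genes, and 3 and 3 in Rev KO, against 35.0%.

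**Figure D3:**
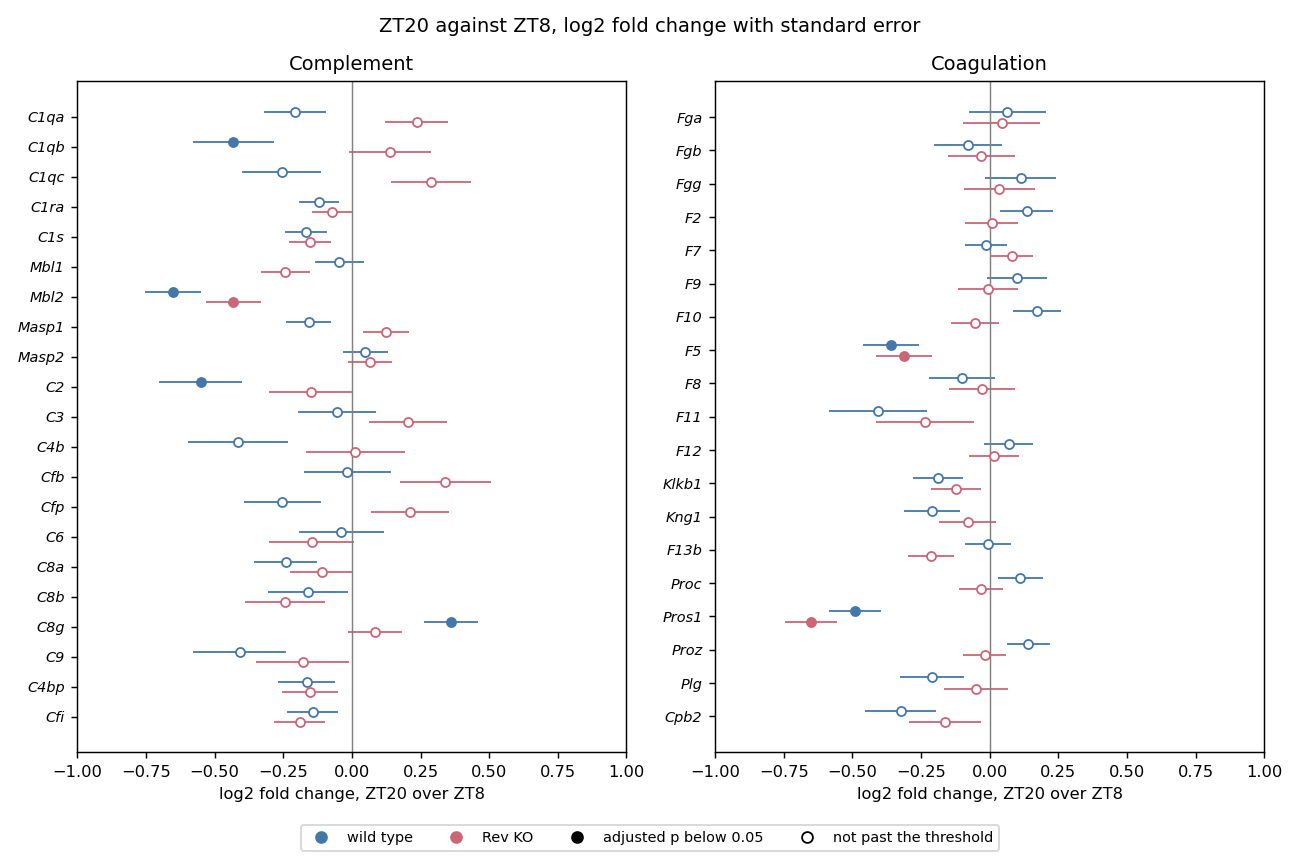
Log2 fold change of ZT20 over ZT8 with its standard error for each tested complement gene (left) and coagulation gene (right), in WT (blue) and Rev KO (red), 3 livers per group, filled where the adjusted p was below 0.05. Mbl2, F5 and Pros1 are filled on the left of 0 in both genotypes, C1qb, C2 and C8g in WT only.

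Mbl2 fell from 322 ± 48.9 to 205 ± 11.9 CPM in WT (mean ± SD, n = 3) and from 387 ± 22.7 to 287 ± 4.05 CPM in Rev KO. The log2 fold changes were -0.65 ± 0.10 (SE, adjusted p = 0.000217) and -0.43 ± 0.10 (SE, adjusted p = 0.0084), and both passed in 19 of 19 alternatives. Mbl2 at ZT20 in Rev KO was at 283 to 291 CPM, within the range of WT at ZT8. Mbl1 did not pass in either genotype, with -0.05 ± 0.09 (SE, adjusted p = 0.749) in WT and -0.24 ± 0.09 (SE, adjusted p = 0.0735) in Rev KO.

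Pros1 fell from 94.7 ± 15.6 to 67.4 ± 3.23 CPM in WT (log2 fold change -0.49 ± 0.09 (SE), adjusted p = 0.00127) and from 89.4 ± 4.43 to 57.0 ± 0.316 CPM in Rev KO (log2 fold change -0.65 ± 0.10 (SE), adjusted p = 0.000317). The livers of ZT20 were below those of ZT8 without overlap in both genotypes. Without WT ZT8 replicates 2 and 3 the fall in WT was -0.26 with adjusted p = 0.0914, and that in Rev KO passed in 19 of 19 alternatives. F5 fell from 951 ± 87.7 to 742 ± 30.6 CPM in WT (log2 fold change -0.36 ± 0.10 (SE), adjusted p = 0.0167) and from 926 ± 108 to 746 ± 23.5 CPM in Rev KO (log2 fold change -0.31 ± 0.10 (SE), adjusted p = 0.0466). F5 was less stable, passing in 15 of 19 alternatives in WT and 8 of 19 in Rev KO. In WT it was lost without WT ZT8 replicate 3 (adjusted p = 0.0658) and without WT ZT20 replicate 2 or 3 (0.0629 and 0.0511). Without WT ZT8 replicates 2 and 3 together it was -0.24 (adjusted p = 0.27). In Rev KO leaving out Rev KO ZT8 replicate 3 took it furthest from the threshold (-0.22, adjusted p = 0.178). F8, the other cofactor, had -0.10 and -0.03.

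C2, C1qb and C8g were called in WT and not in Rev KO. C2 fell from 59.2 ± 12.6 to 40.4 ± 4.37 CPM (log2 fold change -0.55 ± 0.15 (SE), adjusted p = 0.0172), and C1qb from 48.7 ± 10.2 to 36.1 ± 4.39 CPM (log2 fold change -0.43 ± 0.15 (SE), adjusted p = 0.0464). C8g rose from 277 ± 33.8 to 356 ± 22.4 CPM (log2 fold change 0.36 ± 0.10 (SE), adjusted p = 0.0134). Leaving out WT ZT8 replicates 2 and 3 together left 1 library in that group. The log2 fold changes were then -0.20 for C2, -0.07 for C1qb and 0.20 for C8g. C2 lost its call without WT ZT8 replicate 3 (adjusted p = 0.059) and without WT ZT20 replicate 2 or 3 (0.0521 and 0.0608). C8g lost its call without WT ZT8 replicate 3 (0.0715) and without WT ZT20 replicate 1 (0.0609). C1qb lost its call in 10 alternatives with no filter, only 6 samples or 1 library left out. Among them were those without WT ZT8 replicate 2 or 3 (adjusted p = 0.125 and 0.166). In Rev KO the values were -0.15 ± 0.15 (SE) for C2, 0.14 ± 0.15 for C1qb and 0.08 ± 0.10 for C8g, with no call. The difference of the time effects between genotypes is the interaction given above, which did not pass for any of them.

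Of the genes past the threshold in neither genotype, C4b, C9 and F11 had the most negative values in WT, -0.41 ± 0.18 (SE, adjusted p = 0.109), -0.41 ± 0.17 (adjusted p = 0.0897) and -0.41 ± 0.18 (adjusted p = 0.119). The fibrinogen chains lay between -0.08 and 0.11 in WT and between -0.03 and 0.04 in Rev KO. The median log2 fold change was -0.17 for complement and -0.01 for coagulation in WT, and -0.07 and -0.03 in Rev KO. Over all tested genes it was -0.00021 and 0.01.

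**Figure D4:**
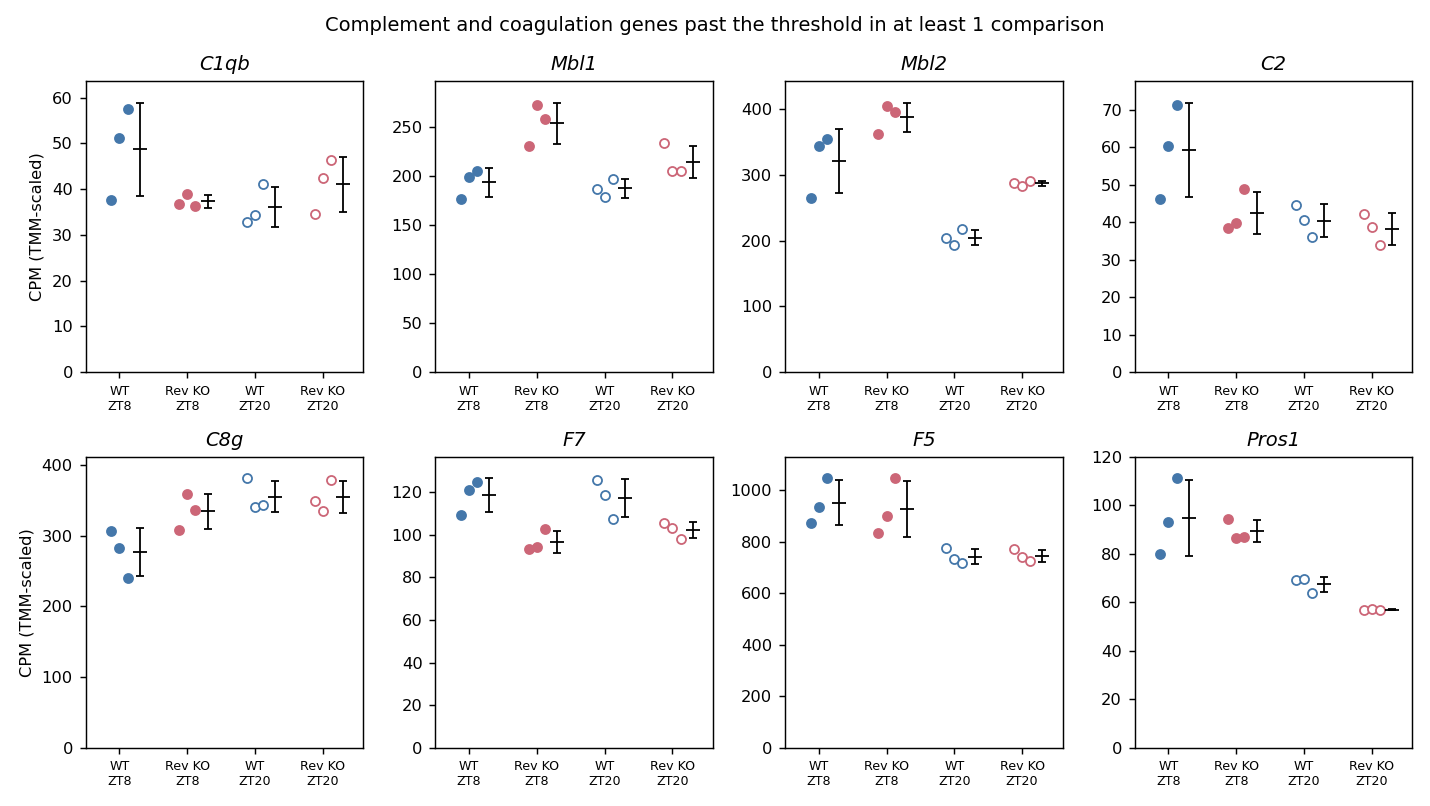
CPM of the 8 members past the threshold in at least 1 comparison, by group, with each point 1 liver (filled at ZT8, open at ZT20, blue WT, red Rev KO), the horizontal tick the mean and the bar ± 1 SD of 3 livers. Mbl1 and Mbl2 lie higher and F7 lower in Rev KO at both times without overlap, and Mbl2, F5 and Pros1 lie lower at ZT20 in both genotypes.

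The wider pathways were taken from lists of inhibitors, receptors and further components. Of 31 tested further complement genes 4 passed at ZT8 (3 higher, 1 lower) and 3 at ZT20 (3 higher, 0 lower), which is to be read against 8.45% and 3.63% of all tested genes. At ZT8, Cd55 (decay-accelerating factor, which takes convertases apart) was higher in Rev KO, at 12.9, 12.0 and 13.3 CPM in WT and 22.1, 16.7 and 14.3 CPM in Rev KO (log2 fold change 0.47 ± 0.13 (SE), adjusted p = 0.0366). Cfhr2, a relative of factor H, was higher by 0.39 ± 0.11 (SE, adjusted p = 0.0386). Clu (clusterin, which blocks the terminal complex) fell, from 1314, 1664 and 1744 CPM in WT to 1060.3, 1172 and 1318 CPM in Rev KO (log2 fold change -0.41 ± 0.12 (SE), adjusted p = 0.0381), and WT replicate 1 and Rev KO replicate 3 overlapped. Of 19 alternatives Cd55 passed in 10 and Clu and Cfhr2 in 11 each. These 3 calls were lost without WT ZT8 replicate 2 or 3 and without Rev KO ZT8 replicate 1 or 2. They were also lost without WT ZT20 replicate 2 and in the fit on 6 samples. Cd55 and Cfhr2 lost theirs without WT ZT8 replicate 1 too, and Cd55 and Clu without Rev KO ZT20 replicate 2.

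At ZT20 Cd59a, Cd59b and C4a were higher in Rev KO. Cd59a and Cd59b encode CD59, the membrane protein that blocks assembly of the C9 pore. Cd59a stood at 18.1, 18.1 and 14.9 CPM in WT and 27.9, 35.6 and 42.1 CPM in Rev KO (log2 fold change 1.05 ± 0.14 (SE), adjusted p = 0.000627). At ZT8 it was at 35.0, 32.0 and 30.2 and 31.1, 36.1 and 39.0 CPM (log2 fold change 0.13 ± 0.13 (SE), adjusted p = 0.627). Only the WT livers at ZT20 were low, and the Rev KO livers at ZT20 were in the range of ZT8 or near it. Cd59b was far lower in level, at 0.372, 0.31 and 0.224 CPM in WT and 1.30, 1.87 and 2.49 CPM in Rev KO at ZT20 (log2 fold change 2.62 ± 0.39 (SE), adjusted p = 0.00106), with 5 to 56 reads per library. The genes lie side by side on chromosome 2 and are copies of each other, so their shares of reads are uncertain. C4a, the copy of C4b, was higher in Rev KO (log2 fold change 1.63 ± 0.30 (SE), adjusted p = 0.021) and is uncertain for the same reason. The calls of Cd59a and Cd59b at ZT20 passed in 19 of 19 alternatives and that of C4a in 14.

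Of 26 tested further coagulation genes 1 passed at ZT8 (0 higher, 1 lower) and 1 at ZT20 (1 higher, 0 lower). Kng2, the copy of the kininogen gene Kng1, fell at ZT8 (log2 fold change -0.44 ± 0.10 (SE), adjusted p = 0.0118), while Kng1 itself had -0.18 ± 0.10 (SE, adjusted p = 0.3). The call of Kng2 was lost without WT ZT8 replicate 2 or 3 and in the fit on 6 samples. F2r, the thrombin receptor PAR1, was higher in Rev KO at ZT20, with 38.6, 38.3 and 29.8 CPM in WT and 47.6, 57.3 and 49.5 CPM in Rev KO (log2 fold change 0.53 ± 0.10 (SE), adjusted p = 0.00805). At ZT8 its values were 66.2, 69.0 and 72.8 CPM and 71.0, 62.2 and 72.8 CPM, and the groups overlapped. The call of F2r at ZT20 passed in 18 of 19 alternatives and was lost without Rev KO ZT20 replicate 2. From ZT8 to ZT20, 8 of the 31 further complement genes and 9 of the 26 further coagulation genes passed in WT, and 3 and 7 in Rev KO, where 27.7% and 17.5% of all tested genes passed.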

How the data were processed

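Per the labels and the study's methods, poly(A) RNA of 12 livers was sequenced, reads were mapped to mm10 with TopHat and counted per gene symbol with HTSeq (union mode, minimum quality 10, both strands together). The authors deposited raw counts of uniquely aligned reads, without filtering or pooling. Their own DESeq2 (1.6.3) results were not used here. The annotation release behind the symbols was not given in the sources used here.

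From the counts, genes were filtered with filterByExpr (14488 left), scaled with TMM and fitted with edgeR 4.0.16 (R 4.3.3) as 4 group means over all 12 samples, with robust quasi-likelihood tests and Benjamini-Hochberg adjustment over all genes tested, threshold 0.05. The fit was tested on simulated data. Members and lists were chosen with earlier results of these data known. Members called between genotypes are given in every sample, those called between times as mean ± SD, the others by role and range except where singled out. Of the wider lists, 1 called gene is not reported here. P-values measure only the spread between these livers. Exact permutation of 3 against 3 could not go below 0.1, so no single-gene permutation test is given. Reads on exons of overlapping genes and reads aligned to several places were dropped. Exon lengths, overlaps and positions come from GENCODE M21, promoter windows from RefSeq (GRCm38.p6). Alternatives, up to 19 per comparison, were DESeq2 1.42.0, size factors, other filters, a fit on the 6 samples compared, a replicate block and leaving out libraries. Leaving out WT ZT8 replicates 2 and 3 together was added after the data were seen, and its lone library is assumed to vary like the other groups.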

Additional observations from a re-analysis of the deposited data

Results flagged for a closer look

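For no member of the complement or coagulation lists did the difference of the genotype effects between ZT8 and ZT20 pass the threshold over the 12 libraries. C1qb did with the replicate number as a block (adjusted p = 0.0413). Leaving out WT ZT8 replicate 1, C1qa, C1qb and C1qc did. In the wider pathway lists 3 genes passed, by the interaction in edgeR with adjustment over all genes tested. That is 2 of 31 further complement genes and 1 of 26 further coagulation genes, against 5.88% of all tested genes, so the share was not clearly above the background. The effect at ZT8 minus that at ZT20 was -0.92 ± 0.19 (SE, log2) for Cd59a (adjusted p = 0.012), -2.78 ± 0.52 for Cd59b (adjusted p = 0.00471) and -0.55 ± 0.14 for F2r (adjusted p = 0.036). The differences of Cd59a and Cd59b passed in 18 of 18 alternatives and that of F2r in 10 of 18, being lost among others without WT ZT8 replicate 2 or 3, without WT ZT20 replicate 2 or 3 and without replicate 2 of either Rev KO group. In all 3 genes the WT livers were lower at ZT20 than at ZT8, by -0.93 ± 0.14, -2.24 ± 0.41 and -0.96 ± 0.10 on the log2 scale. The corresponding values in Rev KO were -0.01 ± 0.13, 0.54 ± 0.32 and -0.42 ± 0.10.

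C5ar2, a receptor for the complement fragment C5a, was without overlap between genotypes in opposite directions at the 2 times. It stood at 2.69 ± 0.244 CPM in WT (mean ± SD, n = 3) and 1.84 ± 0.298 CPM in Rev KO at ZT8, and at 2.03 ± 0.859 CPM in WT and 3.09 ± 0.248 CPM in Rev KO at ZT20. The difference of the effects was -1.13 ± 0.36 (SE), and it did not pass the threshold (adjusted p = 0.0839). Groups of 3 livers are too small to test single values as outliers.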

How the results depend on the processing

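With 3 livers a group, differences of the size of the standard errors given cannot be seen. Levels of genes with overlapping exons are too low where the overlapping gene was in the annotation used for counting. Over all tested genes the replicate numbers did not pair the livers, and pairing was not judged over the members alone. Of 18 pairs of same-numbered libraries 0 correlated above 0.1 in their deviations from the group means (-0.083 to 0.074, mean -0.0144, other pairs 0.00712). With the replicate block the counts of called members changed from 1 to 5 (complement, ZT8, adding C1qa, C1qb, C1qc and Cfp as lower), from 0 to 1 (complement, interaction) and from 2 to 1 (coagulation, Rev KO time). It did not change the number called in the other comparisons. With the block 8.35% of all tested genes passed at ZT8, 5.74% for the interaction and 16.6% in Rev KO over time. DESeq2 called 2 complement members at ZT8 (adding C2), 2 at ZT20 (adding C9), 2 in Rev KO over time (adding Mbl1) and 6 in WT over time (adding C1s and C9), and 3 coagulation members in WT over time (adding Kng1). The fit on 6 samples called 0 coagulation members at ZT8, 1 at ZT20 (Pros1), 1 in Rev KO over time and 3 in WT over time (adding F11). In WT over time it called 4 complement members, with C9 in place of C1qb. The fit on 6 samples called 5.59% of all tested genes at ZT8, 4.38% at ZT20, 16.3% in Rev KO over time and 26.8% in WT over time. DESeq2 called 10.4%, 4.87%, 17.9% and 27.2% of all tested genes in these comparisons. With 1 library left out, the number of complement members called ranged from 0 to 9 at ZT8, from 0 to 2 at ZT20, from 0 to 3 for the interaction, from 1 to 9 in WT over time and from 1 to 3 in Rev KO over time. For coagulation the ranges were 0 to 1 at ZT8, 1 to 3 in WT over time and 1 to 2 in Rev KO over time. Over all tested genes the share called ranged from 3.84% to 12.3% at ZT8 and from 1.64% to 4.47% at ZT20. It ranged from 3.42% to 8.59% for the interaction, from 19.7% to 28.9% in WT over time and from 10.8% to 19.6% in Rev KO over time. Without WT ZT8 replicates 2 and 3 together, only replicate 1 was left in that group, so the number of called members is not given for that fit. In that fit the sign turned for C4b at ZT8 (0.23) and, in WT over time, for C1qa (0.053), C1qc (0.060), C4b (0.084), Cfp (0.030) and Cpb2 (0.016). Without Rev KO ZT20 replicate 3 it turned for C9 in Rev KO over time (0.0059, lowest value with 1 library left out -0.46). None of these was called in the main test or in the fit that turned it. The causes were not tested. Size factors in place of TMM changed the number of called members in no comparison.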
